A study of Mus musculus with 8 samples.

Results

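The Pax genes encode transcription factors that bind DNA through a paired domain, and several members also carry a homeodomain. They act early in organ formation and are grouped by sequence into Pax1 and Pax9, which act in the skeleton and pharyngeal pouches, Pax2, Pax5 and Pax8, which act in kidney, thyroid, midbrain and B cells, Pax3 and Pax7, which act in neural crest and muscle precursors, and Pax4 and Pax6, which act in pancreas and eye. Pax6 is needed to form the lens from surface ectoderm and is expressed in both lens cell types, whereas the other members are known mainly for roles in other tissues. Of 20311 protein-coding mouse genes of at least 1 kb, these 9 were examined. A loop was assigned to a Pax gene when either anchor overlapped the gene body, widened by 5 kb on each side, and TADs (topologically associating domains) and CTCF peaks were assigned in the same way.

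Chromatin contacts were mapped by Hi-C in v6.5 mESC, a wild type embryonic stem (ES) cell line grown without feeders and with LIF, and in epithelium and fiber cells microdissected from lenses of CD-1 newborns at P0.5. Both replicates of each cell type, 30 lenses each for the lens samples, were fixed in 2.0% formaldehyde and merged by the authors into 1 list of HiCCUPS loops and 1 list of Arrowhead TADs. Binding of CTCF, a zinc finger protein found at many loop anchors and TAD borders, was mapped by ChIP-seq in 1 sample of each lens cell type, with 6 µg of chromatin and 5 µl of antibody per the labels, from 200 lenses. In the following, values for the cell types are given in the order ES cells, epithelium, fiber unless named otherwise. The loop lists numbered 8459, 8005 and 7682 loops, and 16433 CTCF peaks were listed for epithelium and 23868 for fiber cells. Because the replicates had been merged, their spread is unknown and the cell types could not be compared by a test. ES cells grew as a cultured line and the lens cells were taken from pooled animals of another stock, so cell type, genetic background and culture cannot be told apart. Expression was not measured in these files, so the cell types could not be checked by marker genes. A loop missing from a list had not passed the thresholds of HiCCUPS, which does not show that the contact was absent. The depth of each contact map is not in the lists, and its part in the counts was not tested. The study reports similar totals of contacts for the cell types, with a lower share between chromosomes in ES cells.

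Promoters of 7 members, 250 bases before to 50 bases after a start site, were matched in the RefSeq table of GRCm38.p6, on the strand of the gene. Pax3 and Pax4 had no entry. Of the promoters whose start sites fell within loop anchors, those of Pax7 and Pax2 promoter 2 are not shown. The following sequences are examples from Pax6, Pax9, Pax1 and Pax2, with each CpG dinucleotide (CG, read on this strand and hence on both) in capitals. They lie at chr2:105668646-105668945 and chr2:105682213-105682512 (Pax6), chr12:56695221-56695520 (Pax9), chr2:147364744-147365043 (Pax1), and chr19:44746351-44746650 and chr19:44756656-44756955 (Pax2), all on the plus strand.
Pax6 promoter 1: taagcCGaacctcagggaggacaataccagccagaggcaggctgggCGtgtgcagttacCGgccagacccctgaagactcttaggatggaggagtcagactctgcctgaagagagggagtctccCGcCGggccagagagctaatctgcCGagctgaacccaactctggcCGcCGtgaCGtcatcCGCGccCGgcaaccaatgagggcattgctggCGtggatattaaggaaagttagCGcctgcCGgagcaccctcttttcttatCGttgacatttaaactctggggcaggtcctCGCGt
Pax6 promoter 2: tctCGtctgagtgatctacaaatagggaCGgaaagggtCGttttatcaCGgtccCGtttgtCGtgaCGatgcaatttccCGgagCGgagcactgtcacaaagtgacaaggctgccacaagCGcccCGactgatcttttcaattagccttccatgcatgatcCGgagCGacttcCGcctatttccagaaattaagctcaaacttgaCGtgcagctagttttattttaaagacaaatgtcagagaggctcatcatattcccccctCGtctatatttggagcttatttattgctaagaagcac
Pax9 promoter 1: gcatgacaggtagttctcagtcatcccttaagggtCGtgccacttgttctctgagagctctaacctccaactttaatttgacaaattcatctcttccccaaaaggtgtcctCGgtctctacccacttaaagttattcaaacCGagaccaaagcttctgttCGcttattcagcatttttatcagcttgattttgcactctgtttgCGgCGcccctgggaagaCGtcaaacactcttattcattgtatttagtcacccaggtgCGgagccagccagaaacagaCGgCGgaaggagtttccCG
Pax1 promoter 1: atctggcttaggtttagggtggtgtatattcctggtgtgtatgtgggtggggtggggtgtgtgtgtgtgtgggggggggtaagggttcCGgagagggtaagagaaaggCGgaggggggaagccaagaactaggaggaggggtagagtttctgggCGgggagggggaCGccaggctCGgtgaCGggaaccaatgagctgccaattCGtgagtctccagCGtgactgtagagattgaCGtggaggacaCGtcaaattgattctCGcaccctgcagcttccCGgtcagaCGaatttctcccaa
Pax2 promoter 1: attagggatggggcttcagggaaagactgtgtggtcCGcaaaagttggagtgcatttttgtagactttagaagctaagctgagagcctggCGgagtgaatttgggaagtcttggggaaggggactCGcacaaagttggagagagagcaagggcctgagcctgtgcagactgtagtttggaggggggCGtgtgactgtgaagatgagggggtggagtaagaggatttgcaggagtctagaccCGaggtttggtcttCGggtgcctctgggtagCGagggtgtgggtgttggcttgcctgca
Pax2 promoter 3: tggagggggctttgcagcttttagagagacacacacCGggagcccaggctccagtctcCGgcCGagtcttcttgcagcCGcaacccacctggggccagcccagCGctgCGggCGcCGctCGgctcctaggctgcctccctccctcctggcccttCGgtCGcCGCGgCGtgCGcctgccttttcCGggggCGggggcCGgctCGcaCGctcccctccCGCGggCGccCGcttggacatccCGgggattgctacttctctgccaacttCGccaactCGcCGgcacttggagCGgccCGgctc
The upstream Pax6 promoter held 18 CpG and the internal promoter 16. Pax9 held 11 and Pax1 13, and the promoters of Pax2 shown here held 7 and 30. Over 19910 promoters of 16140 protein-coding genes, the median was 14.0 CpG (quartiles 5.0 and 25), and 96.7% held at least 1. With 7 of 9 members matched, a summary of CpG over the family was void and is not given. No CTCF peak of either lens list overlapped any of the 10 promoters matched, and over all promoters 1.42% were overlapped by an epithelium peak and 5.74% by a fiber peak.

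Pax genes anchored 35 loops of the ES cell list, 12 of the epithelium list and 11 of the fiber list. Loops were listed at 7, 7 and 6 of the 9 members, against a background of 39.1%, 38.0% and 36.3% of all protein-coding genes in the same order. The Pax gene bodies were longer than most, with a median of 55.0 kb against 19.6 kb for all genes tested, and the background was not adjusted for length. Pax genes with several ES cell loops were frequent: 6 of 9 had at least 4, as did 2.99% of all genes. Between the cell types, 6 members (Pax1, Pax2, Pax3, Pax5, Pax7 and Pax9) had more loops in ES cells than in either lens list, as did 16.9% of all genes.

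**Figure D1:**
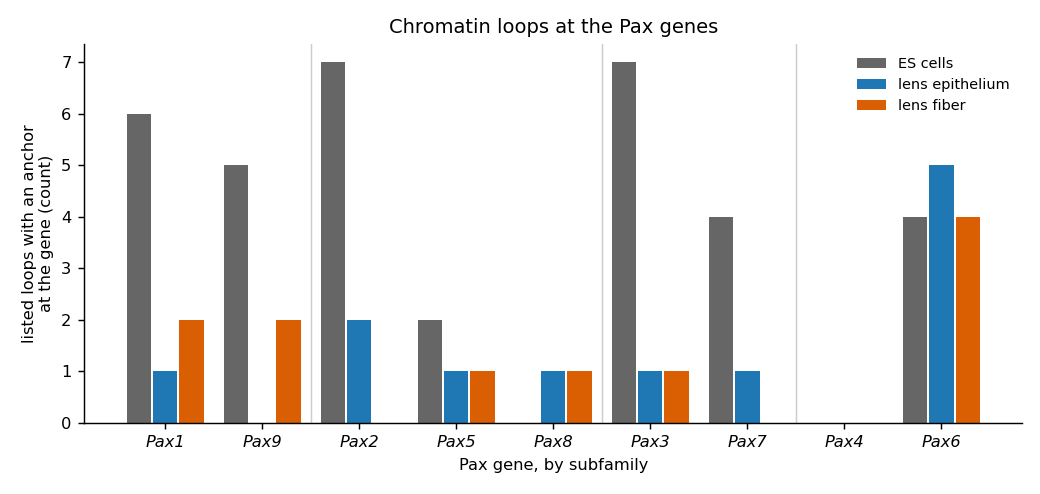
Number of listed loops (vertical axis, count) with an anchor at each Pax gene (horizontal axis, ordered by subfamily and separated by grey lines), with 1 bar for each loop list. Pax6 is the only member with at least 4 loops in all 3 lists, and Pax4 has none.

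Pax6 had 4 loops in ES cells, 5 in epithelium and 4 in fiber cells. In both lens lists this was more than at any of the other 8 members, of which none had more than 2. In ES cells Pax6 was in the middle of the family, with 4 members above it (Pax1, Pax2, Pax3 and Pax9) and Pax7 level with it. Of all protein-coding genes, 97.0% had fewer loops than Pax6 in ES cells, 99.2% in epithelium and 98.1% in fiber cells. Without Pax6, the other 8 members had 31 loops in ES cells and 7 in each lens list. With the gene bodies widened by 25 kb, the family had 46, 16 and 15 loops, and Pax6 (4, 5 and 5) again stood above the other members in the lens, where none exceeded 3, and not in ES cells, where the highest was 8. With 25 kb anchors left out, Pax6 had 2 loops in each list, above the other members in epithelium (at most 1), level with Pax9 in fiber cells (2), and below 5 members in ES cells (Pax1, Pax2, Pax3, Pax7 and Pax9, with 3 to 7).

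The ES cell loops of Pax genes had a larger median size than the lens loops, and some of them joined other regulatory genes. Their median size was 680 kb and the largest spanned 47100 kb, whereas the lens loops had medians of 238 kb in epithelium and 350 kb in fiber cells and none exceeded 525 kb. The median over all loops of the list was 220, 250 and 270 kb. Of the 35 ES cell loops, 11 were longer than 3 Mb, at 5 members (Pax1, Pax3, Pax6, Pax7 and Pax9), and 1.99% of all genes had an ES cell loop of this length. The lens lists as a whole held 84 and 82 loops longer than 3 Mb, none of them at a Pax gene.

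At 15 of the 35 ES cell loops, the other anchor overlapped a homeobox or forkhead gene, families of transcription factors that also pattern the embryo. These 15 loops belonged to 6 members and reached 18 such genes. No epithelium loop (0 of 12) and no fiber loop (0 of 11) did so. Over all loop anchors of each list, 3.25% (ES cells), 1.08% (epithelium) and 1.10% (fiber) overlapped a homeobox or forkhead gene. This set of partners was chosen after the loops had been seen. No loop of any list joined a pair of Pax genes.

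In the Pax1 and Pax9 subfamily, the ES cell partners belonged to the same gene families. Pax1 was joined over 175 kb to Nkx2-2, a regulator of ventral neural identity, with an observed contact count 9.99 times the expected one (95% interval 7.68 to 12.8). The expected count is that of the ring of map pixels around the loop. The intervals are exact Poisson intervals of the observed count, cover counting error only and treat the expected count as fixed. Its other loops reached Nkx2-4 at 280 kb (5.03, 3.52 to 6.96), the endoderm factor Foxa2 at 680 kb (10.6, 7.64 to 14.3), Insm1 and Cfap61 at 1150 kb (3.29, 2.40 to 4.40), and regions without a protein-coding gene at 530 and 30800 kb. Pax9 was joined to Nkx2-9 at 85 kb (5.74, 4.43 to 7.32) and to Nkx2-1, which specifies thyroid and lung, at 155 kb (11.4, 9.20 to 14.1). Further Pax9 loops reached Foxa1, an endoderm factor, at 850 kb (14.1, 10.5 to 18.4) and Osr1, a kidney and limb regulator, at 47100 kb (9.60, 5.37 to 15.8). Both genes thus lay in neighbourhoods that hold an Nkx2 pair and a Foxa gene within 1 Mb, and the 6 loops to them were in the ES cell list alone.

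In the Pax2, Pax5 and Pax8 subfamily, Pax2 had 7 ES cell loops of 85 to 1145 kb. The most enriched ran to Lbx1, a muscle and spinal cord factor, at 490 kb (13.4, 9.88 to 17.8) and to Tlx1, needed for the spleen, at 405 kb (11.7, 9.06 to 14.9). Both partners are homeobox genes. A loop of 230 kb to Wnt8b and Sec31b was weak (2.18, 1.59 to 2.91). In lens epithelium Pax2 kept loops of 125 kb (2.06, 1.78 to 2.38) and 170 kb (2.76, 1.92 to 3.84), each with a counterpart among the ES cell loops, and in lens fiber cells it had none. Pax5 had an ES cell loop of 1640 kb to Foxe1, a thyroid factor (10.3, 6.19 to 16.0), and a loop of 100 kb within its own body (1.91, 1.74 to 2.09). In both lens lists Pax5 had instead a loop of 350 kb to Zcchc7, with 2.77 times the expected contacts (2.24 to 3.39) in epithelium and 2.70 times (2.24 to 3.22) in fiber cells. Pax8 had no ES cell loop by the 5 kb rule and a loop of 350 kb to Cacna1b in both lens lists (2.12, 1.75 to 2.55 in epithelium and 2.01, 1.69 to 2.38 in fiber cells). The Pax8 values depended on the window. In ES cells, 4 loops ended 10.6 to 19.4 kb from the gene, among them a loop of 370 kb whose other anchor overlapped that of the lens loop, and with 25 kb of widening Pax8 had 4 loops in ES cells and 3 in each lens list.

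In the Pax3 and Pax7 subfamily, Pax3 had the most loops above 3 Mb of any member, 5 of its 7 in ES cells. Among them were loops to En1, a midbrain homeobox gene, at 42400 kb (15.4, 9.95 to 22.7) and to Pou3f3 at 35500 kb (13.3, 7.99 to 20.7). Others reached Wnt6 at 3420 kb (8.87, 5.94 to 12.7) and Cryba2, a gene of the beta-crystallins that fill lens fiber cells, at 3300 kb (5.37, 3.60 to 7.71). Neither lens list held the Pax3 loop to Cryba2 or any other Pax3 loop above 3 Mb. These long loops rested on 19 to 29 observed contacts each. Anchors 2.87 kb outside the gene carried 3 of the 7 ES cell loops, that to En1 among them, and both lens loops, so that without widening Pax3 had 4 loops in ES cells, as many as Pax6, and 0 in each lens list. Pax7 was joined in ES cells to Prdm16 at 14810 kb, the most enriched of all Pax loops (26.5, 14.5 to 44.5, from 14 observed contacts), to Camk2n1 at 1380 kb (13.2, 9.38 to 18.0), to Nbl1 at 740 kb (3.99, 2.58 to 5.89) and to Igsf21 at 415 kb (4.89, 3.06 to 7.40). In the lens, Pax7 had a single loop of 140 kb in epithelium (2.85, 2.20 to 3.64) and none in fiber cells by the 5 kb rule. A fiber loop of 160 kb, from an anchor 16.5 kb outside Pax7, and an ES cell loop of 165 kb, from 21.5 kb outside, ended at the same place as the epithelium loop.

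**Figure D2:**
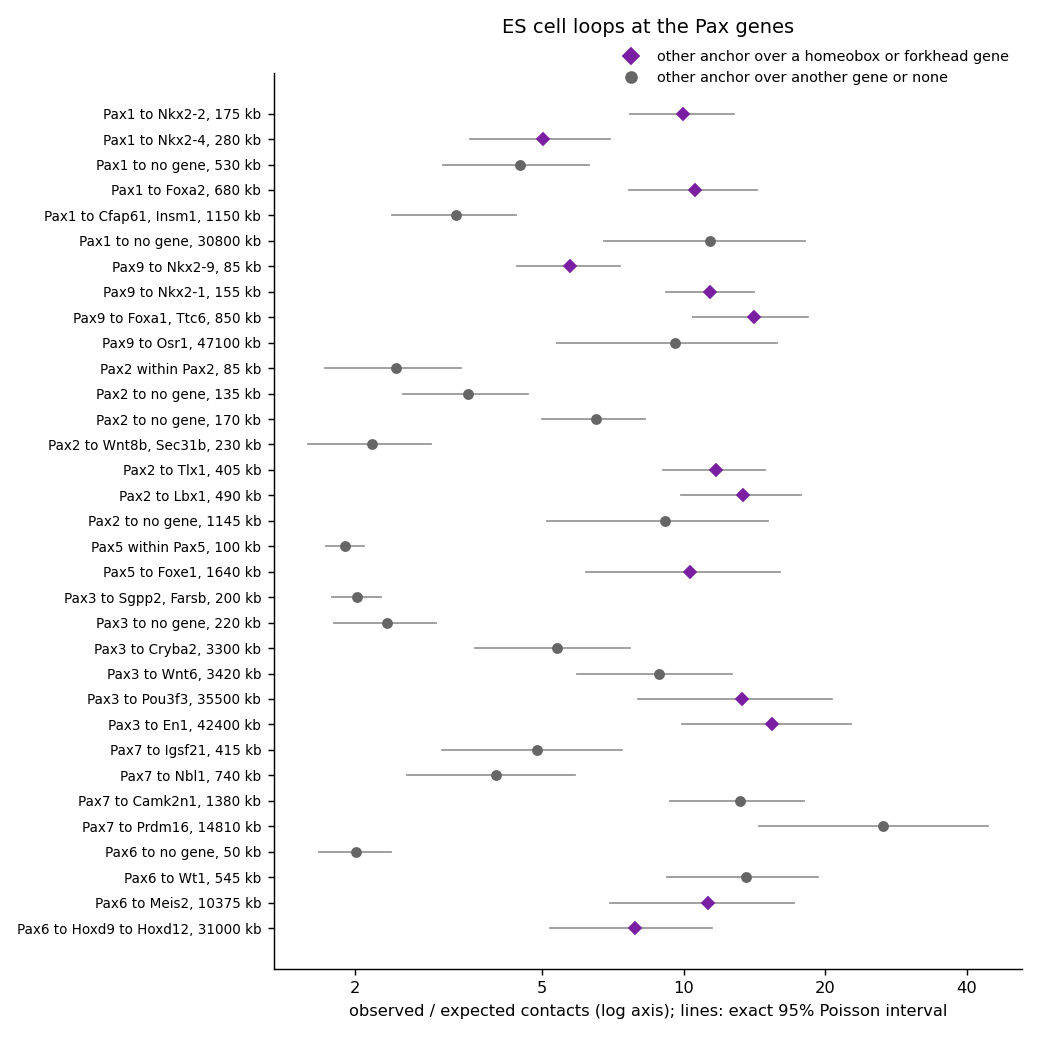
Observed over expected contacts (horizontal axis, log scale) of 33 of the 35 ES cell loops at Pax genes, with exact 95% Poisson intervals as lines and the partner gene and loop size on the vertical axis. Loops to homeobox or forkhead genes (diamonds) lie between 5.03 and 15.4.

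In the Pax4 and Pax6 subfamily, Pax4, which acts in the endocrine pancreas, had no loop in any list. The nearest anchor lay 12.3 kb from the gene in ES cells and 42.3 kb away in both lens lists. Pax6 carried 2 of its 4 ES cell loops to homeobox genes on the same chromosome: Meis2, itself a regulator of Pax6, at 10375 kb (11.3, 6.98 to 17.2) and Hoxd9 to Hoxd12 at 31000 kb (7.90, 5.21 to 11.5). Its loop to Wt1, a kidney and gonad regulator, had 13.6 times the expected contacts (9.22 to 19.3). No ES cell loop of Pax6 ended in the genes from Elp4 to Dcdc5 that follow it.

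In the lens, all Pax6 loops but the shortest ran downstream, into or across Elp4, whose introns are known to hold distant Pax6 enhancers. From the start of Pax6, the epithelium loops ended at 126 kb in Elp4, 319 kb in Dnajc24, and 419 and 519 kb in Dcdc5. The fiber loops ended at 244 kb at Elp4 and Immp1l, and at 416 and 519 kb in Dcdc5. Their enrichment lay between 1.75 and 3.33 times, below that of the 3 distant ES cell loops. Outside the 5 kb window, a further fiber loop ran from an anchor 11.6 kb from Pax6 to 116 kb in Elp4 (2.18 times). Both its midpoints lay within 25 kb of those of the epithelium loop to 126 kb. Only 1 of the 5 epithelium loops had a fiber counterpart with both midpoints within 10 kb, and 4 had one within 25 kb, so that the far ends were close while the ends at Pax6 lay in different map bins. The internal start site of Pax6 fell within 2 of the epithelium anchors, 2 of the ES cell anchors and no fiber anchor, and the upstream start site within 1 epithelium, 1 ES cell and 2 fiber anchors. With anchors of up to 25 kb, these positions are coarse.

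The 50 kb loop from the upstream end of Pax6 was listed in all 3 cell types at the same anchors. It had 130 observed contacts in ES cells (2.01 times the expected, 1.68 to 2.39), 83 in epithelium (3.09, 2.46 to 3.84) and 86 in fiber cells (2.34, 1.87 to 2.88). The interval in epithelium lay above that in ES cells, and the fiber interval overlapped both. A loop of 200 kb from Pax3 to Sgpp2 and Farsb was the other one present at the same anchors in all 3 lists, at 2.02 (1.79 to 2.27), 2.07 (1.74 to 2.44) and 2.15 times (1.86 to 2.48). Its values could not be separated by counting error. Both lens lists also shared the loops of 275 kb at Pax1 and 350 kb at Pax5 and Pax8, whose intervals overlapped between epithelium and fiber cells.

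Counterparts in other lists were less frequent for ES cell loops of Pax genes than over the whole list. Of the 35 ES cell loops, 4 (11.4%, Wilson interval 4.54 to 26.0) were in the epithelium list and 2 (5.71%, 1.58 to 18.6) in the fiber list, while 35.9% and 34.6% of all ES cell loops were. Of the 12 epithelium loops, 5 (41.7%, 19.3 to 68.0) had a fiber counterpart and 4 (33.3%, 13.8 to 60.9) an ES cell counterpart, against 55.5% and 37.9% of all epithelium loops. Of the 11 fiber loops, 7 (63.6%, 35.4 to 84.8) had an epithelium counterpart, which includes loops of the epithelium list just outside the Pax window, and 3 (27.3%, 9.75 to 56.6) an ES cell counterpart, against 57.8% and 38.1% of all fiber loops. For both lens lists the whole-list shares lay inside these intervals. The Wilson intervals, here and below, treat loops as independent. Several loops of a gene share an anchor, so the intervals may be too narrow. The ES cell loops at Pax genes were also larger than those of the whole list, and the part of size in this difference was not tested.

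The 2 fiber loops of Pax9 show this effect of the window. They ran downstream to Slc25a21, over 300 kb (5.09, 3.38 to 7.36) and 500 kb (4.10, 3.0 to 5.47), from anchors 1.69 kb outside the gene. Lens epithelium had no Pax9 loop by the rule, yet its list held loops of 300 kb (4.89 times the expected) and 510 kb (5.27 times) from anchors 6.69 and 11.7 kb outside the gene, and ES cells had one of 505 kb (3.70 times) at 6.69 kb. The Pax9 loops to Slc25a21 were therefore listed in both lens cell types, the longer of them also in ES cells, and the upstream loops to Nkx2-9 and Nkx2-1 in ES cells alone.

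**Figure D3:**
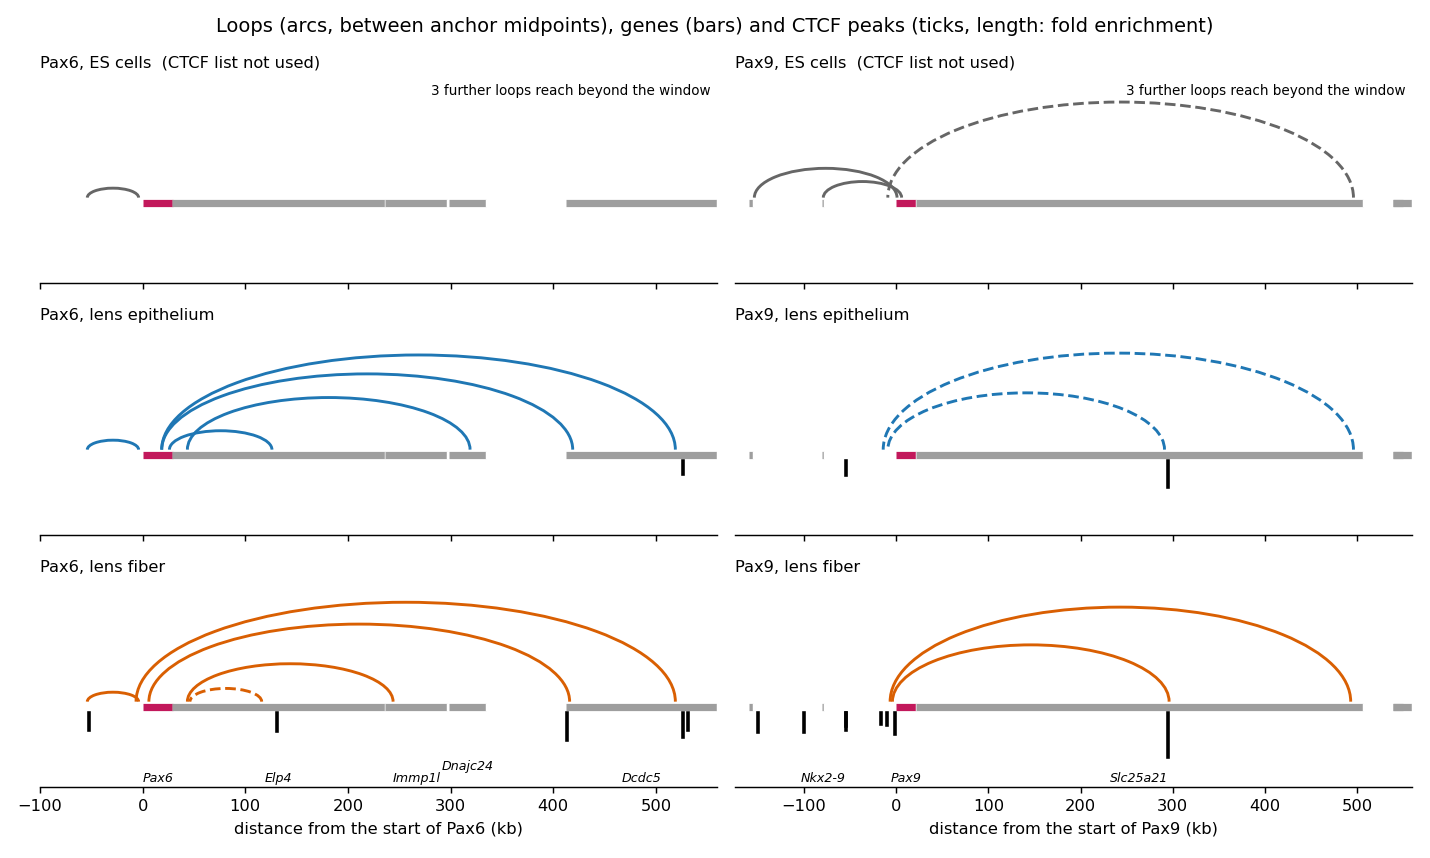
Loops near Pax6 (left) and Pax9 (right) as arcs between anchor midpoints, by distance from the start of the gene (horizontal axis, kb), for each loop list; arc height follows loop size, dashed arcs end between 5 and 25 kb from the gene, pink and grey bars are genes, and black ticks are CTCF peaks with length by fold enrichment. Lens loops of Pax6 run downstream up to 519 kb, and the longer downstream Pax9 loop appears in all 3 lists.

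The enrichment of Pax loops was higher in ES cells, with a median of 9.15 times the expected contacts against 2.47 in epithelium and 2.15 in fiber cells. It exceeded 5 in 24 of 35 ES cell loops, 0 of 12 epithelium loops and 1 of 11 fiber loops, while 16.1%, 12.7% and 6.64% of all loops in these lists did. Over all loops longer than 3 Mb, the medians were 11.2, 29.5 and 5.14. Of the 35 ES cell loops at Pax genes, 11 were of this length. Within ES cells, the 15 loops to homeobox or forkhead genes had a median of 11.3 and the other 20 a median of 4.69. That split used partners chosen after the loops had been seen, and the part of loop size and anchor width in it was not tested. The contrast between cell types moved with loop size and anchor width. Among loops of up to 525 kb, the ES cell median was 4.89 (15 loops), and at 25 kb anchors of this size the 2 ES cell loops (1.91 and 2.02) lay among the 8 epithelium loops (1.88 to 2.77) and the 7 fiber loops (1.75 to 2.70). At 10 kb anchors the 4 ES cell loops of this size had a median of 2.26, below 2.80 in epithelium (4 loops) and 3.33 in fiber cells (3 loops). The higher ES cell values were mostly those of loops called with 5 kb anchors and of distant loops. Anchors of 5 kb were those of 13 of 35 loops in ES cells against 0 of 12 and 1 of 11 in the lens. Over all loops with 5 kb anchors the medians were 3.89 in ES cells, 5.07 in epithelium and 4.41 in fiber cells. The 13 ES cell Pax loops had a median of 9.99. The part of anchor width and loop size in the contrast was not tested. With anchors of 25 kb left out, 25 loops remained in ES cells and 4 in each lens list.

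**Figure D4:**
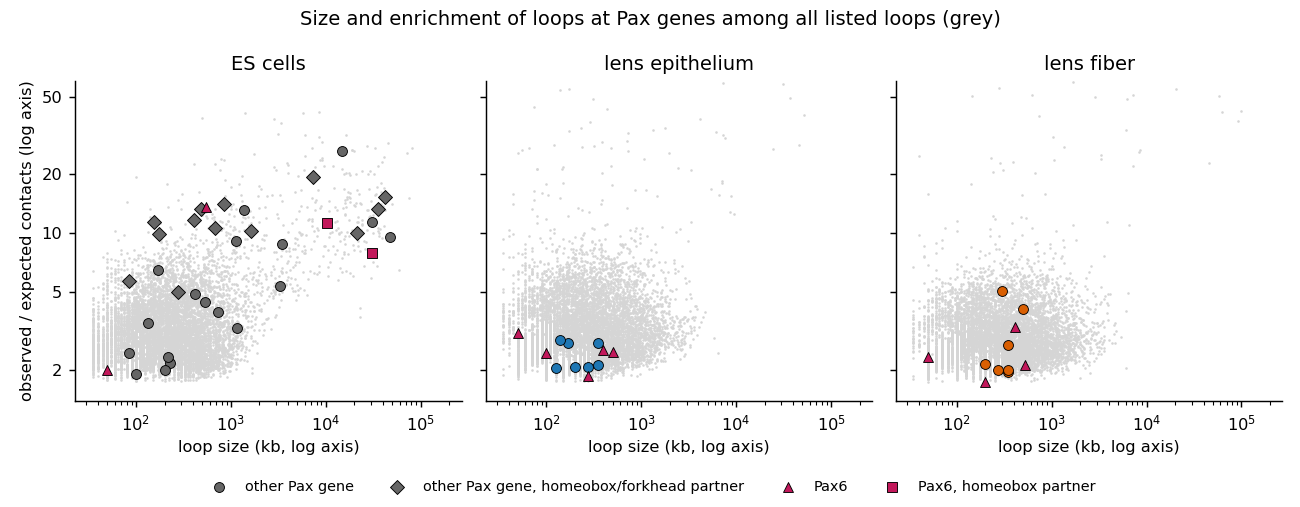
Loop size (horizontal axis, kb, log scale) against observed over expected contacts (vertical axis, log scale) for loops at Pax6 (pink) and at the other Pax genes, over all loops of each list in grey; 28, 44 and 25 grey loops above 60 are not drawn. Pax loops in ES cells extend to 47100 kb, and those of the lens stay at or below 525 kb.

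A start site of the Pax gene lay within the anchor of 20 of the 28 ES cell loops for which start sites were matched, 6 of 11 epithelium loops and 2 of 10 fiber loops. Over all genes with a matched promoter, 28.0%, 30.4% and 30.0% of the pairs of a gene and a loop at it did so. For Pax1, 5 of 6 ES cell anchors covered the start site, and the lens anchors began 10.0 kb downstream of it. For Pax9, 4 of 5 ES cell anchors covered it and neither fiber anchor did. By anchor width, start sites lay within 8 of 13 ES cell anchors of 5 kb, 7 of 9 of 10 kb and 5 of 6 of 25 kb, against 19.6%, 26.3% and 42.1% over all genes at these widths.

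TADs touched 7 Pax genes in ES cells, 5 in epithelium and 6 in fiber cells, against 45.5%, 23.9% and 33.1% of all genes. Pax4 and Pax6 were the 2 members touched by no TAD of any list, as were 43.6% of all genes, and the nearest TAD to Pax6 lay 229, 11.6 and 63.9 kb away. Pax1, Pax2 and Pax9 lay whole within a TAD of both lens lists and of no ES cell TAD, which held for 3 of 9 members and 3.79% of all genes. For Pax9 and Pax2 the downstream borders lay close together and the upstream borders differed. The downstream borders lay 482 kb past Pax9 in every list and 56.7, 56.7 and 61.7 kb past Pax2. For Pax1 both borders shifted between the lists, the downstream one lying 395, 375 and 365 kb past the gene. For Pax9, the TAD began 18.3 kb inside the gene in ES cells, leaving 2.82 kb of the gene in it, and 36.7 and 41.7 kb before the gene in epithelium and fiber cells. For Pax2 it began 13.4 kb inside the gene in ES cells and 172 kb before it in both lens lists. For Pax1 it began at the downstream end of the gene in ES cells and 1.93 and 11.9 kb before the gene in the lens lists. The Pax9 TAD of lens fiber cells, 545 kb long, was the largest at any member and held no other whole gene. It did hold most of Slc25a21, which runs from 20.9 to 506 kb from the start of Pax9.

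The remaining members varied less or in other ways. Pax3 lay in a TAD of 490, 505 and 525 kb, together with Sgpp2 and Gm2102 each time. Pax8 lay in a TAD of 165 kb in ES cells and 155 kb in fiber cells, and in a TAD of 510 kb in epithelium with 4 further genes (Il1f10, Il1rn, Psd4 and Cacna1b). Pax7 had a TAD of 185 kb in ES cells and 170 kb in lens fiber cells, and none in epithelium. Pax5 had a TAD of 95 kb inside the gene in ES cells only.

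**Figure D5:**
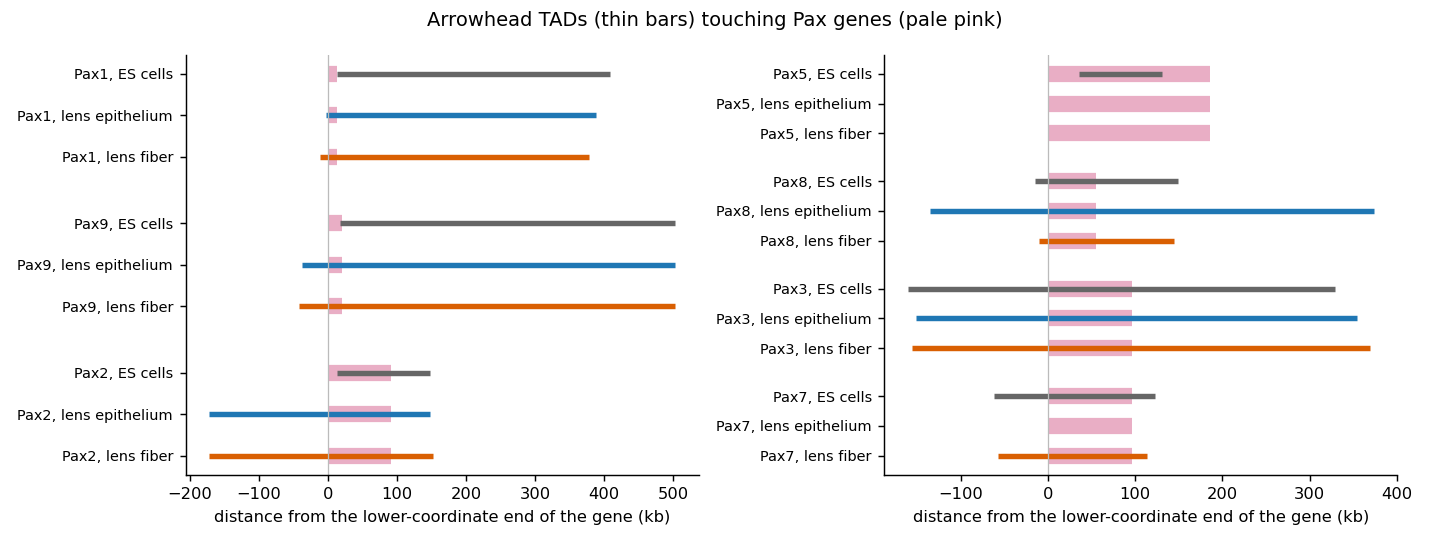
TADs touching each Pax gene (thin bars, coloured by cell type) by distance from the lower-coordinate end of the gene (horizontal axis, kb), with the gene body in pale pink; Pax4 and Pax6 have none. The ES cell TADs of Pax1, Pax9 and Pax2 begin at the downstream end of the gene or inside it, and the lens TADs begin before it.

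In epithelium, CTCF peaks were listed at 2 Pax genes (Pax1 and Pax5), and in fiber cells at 3 (Pax1, Pax5 and Pax9), against 32.9% and 48.2% of all genes. The strongest was 4.10 kb past the end of Pax1, with a fold enrichment over background of 10.7 in epithelium and 11.3 in fiber cells. It lay in the anchors of the lens loops of Pax1 and in no ES cell anchor. Inside Pax5, a peak had a fold enrichment of 3.98 in epithelium and 9.33 in fiber cells and lay in the anchor of the 350 kb lens loops and of the 100 kb ES cell loop. At Pax9, a peak with a fold enrichment of 7.52 in fiber cells had no counterpart in epithelium. Its summit lay 1.79 kb from the gene, in the anchors of both fiber loops. The peak also overlapped the anchors of 3 ES cell loops by at least 1 bp. Of these, only the anchor of the 47100 kb loop held the summit, and the others overlapped just the edge of the peak.

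Pax6 had no CTCF peak in either list within 5 kb, and the nearest were 145 kb away in epithelium and 52.2 kb away in fiber cells. At the far ends of its lens loops, fiber peaks lay 52.3 kb before the start of Pax6 (fold enrichment 6.05) and 131 kb (6.5), 413 kb (9.47) and 526 kb (8.63) after it. Of these, epithelium had a peak at 526 kb alone (4.54). The fiber peak at 131 kb overlapped only the edge of an anchor of the 100 kb epithelium loop, with its summit outside. No fiber loop of Pax6 ended on that peak. The peaks nearest to Pax6 lay beyond the reach of any anchor at the gene. None of the 9 lens loops of Pax6 could therefore have a CTCF peak of its own cell type at both anchors. At the whole family, CTCF occupied both anchors of 0 of 12 epithelium loops (upper Wilson bound 24.2%) and 4 of 11 fiber loops (36.4%, 15.2 to 64.6), and 15.7% and 39.1% of all loops of these lists. These shares count the 5 epithelium and 4 fiber loops of Pax6. The 4 fiber loops with CTCF at both anchors were both loops of Pax1, the 300 kb loop of Pax9 and the loop of Pax8. The labels give 1 CTCF sample for each lens cell type, while the study's methods state replicates and another amount of chromatin, and whether a list pools them is not given in the sources used here. The fiber list was longer, so counts of peaks cannot be compared between the cell types beyond these lists.

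The genes that work with Pax proteins were counted in the same way. Over all protein-coding genes, 39.1% had a loop in ES cells, 38.0% in epithelium and 36.3% in fiber cells. An ES cell loop above 3 Mb was listed at 1.99% of all genes. Of 12 genes of the Six-Eya-Dach families, which form the retinal determination network with Pax6, 9 had a loop in ES cells and 7 in each lens list, and none had an ES cell loop above 3 Mb. Of 10 lens regulators, 9 had a loop in ES cells and 8 in each lens list, and 4 had an ES cell loop above 3 Mb, next to 5 of 9 Pax genes. The most loops were at Meis2 (9 in ES cells, 5 in epithelium and 3 in fiber cells), Tfap2a (10, 2 and 1), Six3 (5, 3 and 3), and Eya4 (3, 5 and 2) and Maf (0, 6 and 4), which were level at 10 in all. Over 8 counts per gene (loops, TADs and CTCF peaks in each list), the genes most like Pax6 were Skint5, with the same 8 counts, Skint6, Nr2f2, Pou3f2 and Gemin8, at distances of 0.263, 0.727, 0.741 and 0.782 on the log2(count + 1) scale.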

How the data were processed

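The submitters' processing notes name mm10 (GRCm38), BWA, Juicer and juicer_tools 2.13.06. The authors merged both replicates before calling. In the deposited loop lists, each loop has a raw observed count of contacts, with a background count (a signal) and an FDR (q-value) computed by HiCCUPS. The authors called CTCF peaks with MACS2, whose deposited columns are a score, a fold enrichment, and the p-value and q-value as −log10.

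Overlaps of at least 1 bp, sizes (between anchor midpoints), observed over expected ratios against the donut background, shared loops (both midpoints within 10 kb) and 95% Poisson or Wilson intervals were computed in Python 3.11.15 (pandas 2.3.3, numpy 2.4.6, scipy 1.17.1), drawn with matplotlib 3.10.9 and tested on simulated data (5 of 5 checks passed). Genes came from RefSeq (GRCm38.p6). All 9 Pax genes, the protein-coding genes at their partner anchors, those in their largest TAD, the 5 genes with counts most like Pax6 and up to 4 network genes were named. The members and lists were chosen with earlier results of these data known. Alternatives changed the window, FDR limit, anchor width, sharing tolerance, TAD rule and peak threshold. CTCF in ES cells, compartments, expression and the sequence of CTCF peaks were not analysed here, and loops to withheld items count in the totals but are not reported singly.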

Additional observations from a re-analysis of the deposited data

How the results depend on the processing

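No paired analysis was possible because the replicates of each cell type were merged into 1 list before deposit, so replicates could not be left out either. Of 70 alternative values for 21 results, 52 stayed and 18 moved. A value stayed if it lay within 1.5 times the reported count or within the 95% interval of the median. Loops with 25 kb anchors carried much of the lens counts. Without them, the loops at Pax genes fell to 4 in each lens list, those at Pax6 to 2 in each of the 3 lists (level with Pax9 in fiber cells), the Pax genes with a loop to 3 in epithelium and 2 in fiber cells, and the median size in lens epithelium to 120 kb. Without widening of the gene body, lens fiber cells had 7 loops, and each CTCF list 1 peak. With 25 kb of widening, an alternative chosen after the data were seen, there were 6 CTCF peaks in epithelium and 8 in fiber cells. ES cell TADs numbered 3 when the whole gene had to lie inside and 3 when TADs under 200 kb were left out. Within 25 kb, 9 epithelium loops had a fiber counterpart. The stronger 50% of the epithelium peaks left 1 at Pax genes, and anchors widened by 5 kb gave 1 epithelium loop with CTCF at both ends. The depth of the maps is not in the lists, and its part in these counts was not tested.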
